A study of Mus musculus with 6 samples.

Results

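The core of the Hedgehog signalling pathway was examined in 9 genes, taken by symbol with earlier results of these data known. These were the receptor gene Ptch1, the signal transducer gene Smo, the co-receptor genes Gas1, Cdon and Boc, the inhibitor gene Sufu, and the transcription factor genes Gli1, Gli2 and Gli3. They are 9 of the 32028 genes for which counts could be summed. The 6 libraries held poly(A) RNA of clonal mouse embryonic fibroblast lines immortalized with SV40 large T antigen. The het clones, replicates 1 to 3, came from Macf1flox/+ mice, and the knockout clones, replicates 1 to 3, came from Macf1flox/flox mice. All 6 lines had been exposed to AAV8-CMV-Cre, a virus that delivers Cre recombinase from a ubiquitous promoter, and each was grown from a single cell. By this design het clones would carry 1 recombined Macf1 allele and knockout clones 2. Recombination of the alleles was not tested here. Macf1 encodes a giant protein that links actin filaments to microtubules, and the title of the series concerns its part in building cilia. The labels name neither the age of the embryos nor any Hedgehog ligand or agonist added to the cells. They do not say whether clones of 1 genotype came from separate embryos, so the p-values measure the spread between clones. If the clones of 1 genotype share an embryo, differences of genotype and of embryo cannot be told apart.

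Hedgehog ligands act by binding Patched receptors, helped by the co-receptors, and this releases Smoothened from inhibition. In vertebrates, Smoothened then gathers in the primary cilium, and Gli proteins, otherwise held or processed into repressors with the help of Sufu, become activators. Gli1 and Ptch1 are themselves targets of the pathway and are widely read as its output, while Gas1, Cdon and Boc are known as genes that active signalling lowers in several tissues.

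Of the 9 genes, 7 had enough counts to be tested, Gli1 was too low, and Boc had no counts in any library. In edgeR's quasi-likelihood test with Benjamini-Hochberg adjustment over 12745 genes, 4 fell in the knockout clones (Gas1, Cdon, Gli2 and Gli3). No member rose (0 also at an unadjusted p under 0.05, with DESeq2 and with limma-voom), and Ptch1, Smo and Sufu did not pass. Over all tested genes 28.1% passed, 14.2% in the lower and 13.9% in the higher direction. For 5 of the 7 the CPM ranges of het and knockout clones were apart, in 4 of them with knockout clones lower, against 47.5% and 23.8% of all tested genes. CPM is a gene's count scaled to the library's total, adjusted by TMM (trimmed mean of M-values). The median log2 fold change was -0.7 over the 7 tested members and 0 over all tested genes.

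**Figure D1:**
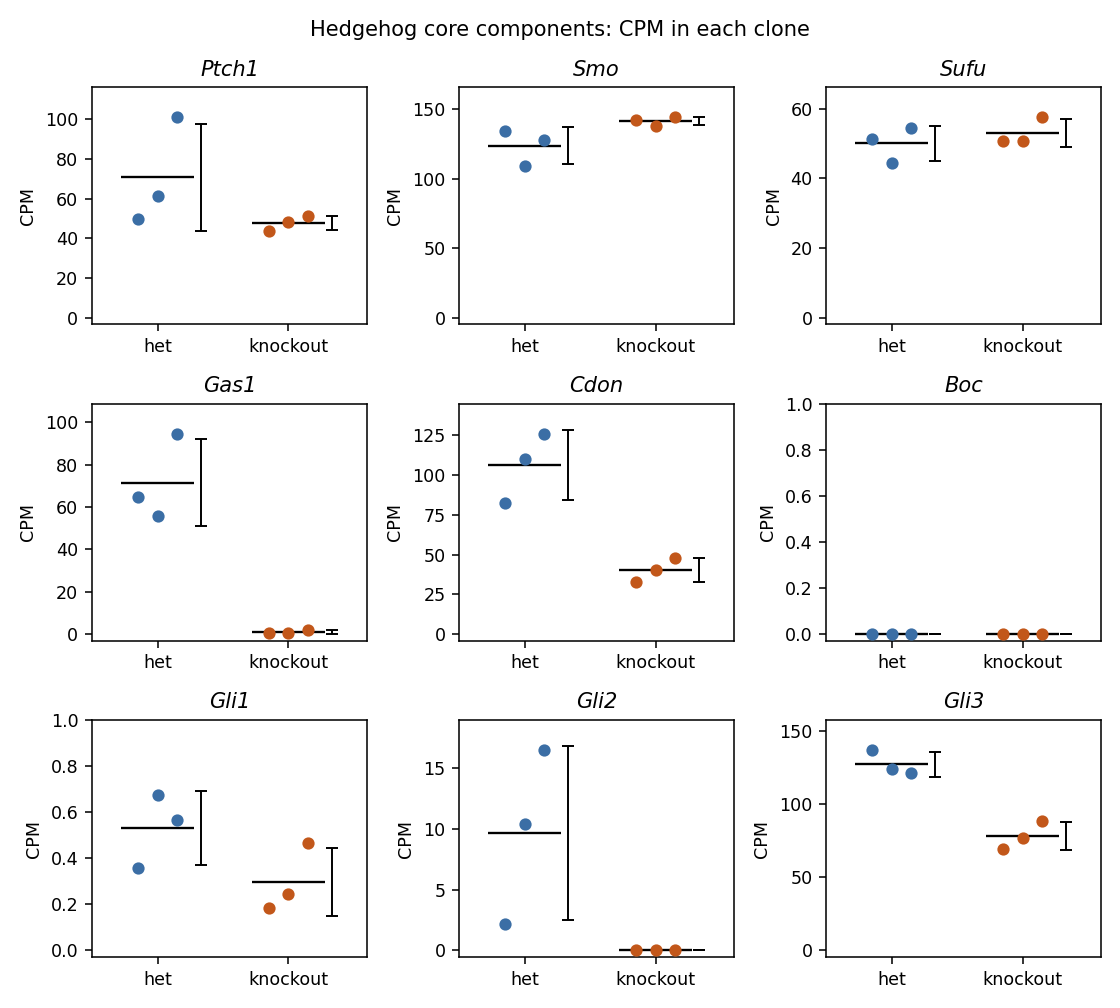
CPM (linear axes from 0) of the 9 Hedgehog core genes in each of 3 het (blue) and 3 knockout (orange) clones, with lines at the group means and bars of 1 SD beside them. Gas1, Cdon, Gli2 and Gli3 show no overlap between the genotypes and are lower in knockout clones, Smo shows none and is higher without passing the test, and Boc is at 0 in all 6.

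Sequences just upstream of the annotated start are shown for Gli2 and Gas1, the members that fell to 0 or close to it, and for Sufu, a member with similar levels in both genotypes. They are the 250 bases before the start (RefSeq, GRCm38.p6), 5′ to 3′ on the gene's own strand, with CpG dinucleotides in capitals.
Gli2, chr1:119053620-119053869, minus strand: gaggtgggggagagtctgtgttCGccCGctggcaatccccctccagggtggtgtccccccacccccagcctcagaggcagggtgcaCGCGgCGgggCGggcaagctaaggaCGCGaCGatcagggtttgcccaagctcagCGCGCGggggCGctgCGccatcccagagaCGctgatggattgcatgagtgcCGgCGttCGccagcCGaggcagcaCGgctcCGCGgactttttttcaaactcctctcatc
Gas1, chr13:60177536-60177785, minus strand: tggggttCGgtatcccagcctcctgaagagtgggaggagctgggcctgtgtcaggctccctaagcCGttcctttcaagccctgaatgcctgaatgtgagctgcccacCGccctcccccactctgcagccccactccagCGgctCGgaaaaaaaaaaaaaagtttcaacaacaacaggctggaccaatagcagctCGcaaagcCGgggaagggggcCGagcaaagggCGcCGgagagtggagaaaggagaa
Sufu, chr19:46396646-46396895, plus strand: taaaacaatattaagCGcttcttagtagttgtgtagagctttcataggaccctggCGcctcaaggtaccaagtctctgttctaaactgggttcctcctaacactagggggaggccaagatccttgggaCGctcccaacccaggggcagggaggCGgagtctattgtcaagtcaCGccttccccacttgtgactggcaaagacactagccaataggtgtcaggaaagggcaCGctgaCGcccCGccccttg
The Gli2 window held 22 CpG dinucleotides, that of Gas1 10 and that of Sufu 8, against a median of 6 over 32851 windows of this length. At least as many were found in 14.8%, 37.8% and 43% of those windows. Windows were given for 7 of the 9 genes, and the other counts were 41 for Ptch1, 34 for Gli3, 15 for Smo and 1 for Cdon. The windows of Ptch1, Gli3 and Cdon lie before a start inside the gene span given below. The letters GACCACCCA, the classical Gli recognition sequence, were searched on both strands and were found in 0 of these 7 windows and in 0.225% of all windows. At so low a share, 0 of 7 was likely beforehand, so this search cannot tell whether Gli proteins bind these genes.

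Among the co-receptors, Gas1 was nearly lost in the knockout clones. Gas1 (ENSMUSG00000052957; chromosome 13, 60174405 to 60177365, minus strand, GRCm38) encodes a membrane-anchored protein that binds Sonic hedgehog and helps present it to Patched. It stood at 64.5, 55.5 and 94.6 CPM in het replicates 1, 2 and 3 and at 0.611, 0.308 and 1.86 CPM in knockout replicates 1, 2 and 3. Every knockout clone lay far below every het clone, and knockout replicate 3 held 36 of the 51 knockout counts. The group means were 71.5 ± 20.5 and 0.927 ± 0.824 CPM (± SD, n = 3 clones each). The log2 fold change was -6.21 ± 0.57 (SE, adjusted p = 0.00131, edgeR). The pooled counts differed 72.2-fold (counting interval 54.8 to 97.2), or 154-fold without knockout replicate 3. In the deposited FPKM on the log2(FPKM + 1) scale, which understates changes of low genes, the log2 difference was -4.25 (adjusted p = 2.78e-05, limma).

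Cdon fell too, but remained well expressed. Cdon (ENSMUSG00000038119; chromosome 9, 35421128 to 35507652, plus strand) encodes an immunoglobulin-family co-receptor. Its values were 82.6, 110 and 126 CPM in het replicates 1 to 3 and 32.5, 40.2 and 47.9 CPM in knockout replicates 1 to 3. The lowest het clone was above the highest knockout clone. The means were 106 ± 22 and 40.2 ± 7.69 CPM, a log2 difference of -1.4 ± 0.2 (SE, adjusted p = 0.00402, edgeR).

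The third co-receptor gene, Boc (ENSMUSG00000022687; chromosome 16, 44485049 to 44558897, minus strand), is a close relative of Cdon and was listed at 0 in all 6 libraries. If its transcript could receive reads, a count of 0 allows up to 0.0595 CPM over the het and 0.0577 CPM over the knockout group (3 counts per group, counting error only). Its counts come from a single transcript entry, and whether the 0 reflects absent RNA or how that entry was indexed was not tested. Per kilobase of transcript, where genes can be compared, the summed co-receptor level was 33.4, 34.2 and 49.7 CPM per kilobase in het replicates 1 to 3 and 4.79, 5.76 and 7.37 in knockout replicates 1 to 3. Gas1 made up 54.8% to 65.2% of this sum in het clones and 1.8% to 8.53% in knockout clones, where Cdon made up the rest.

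**Figure D2:**
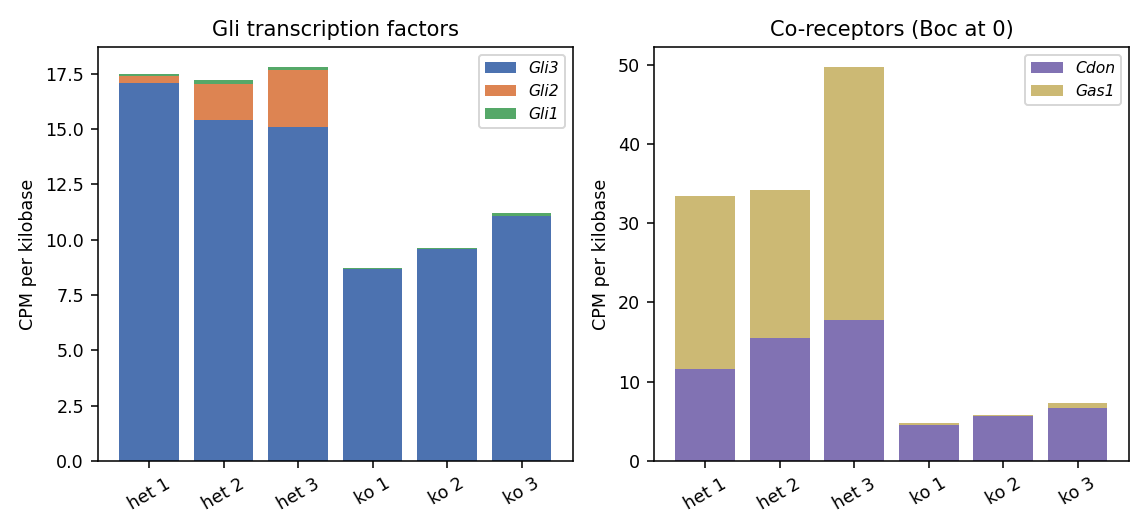
Summed CPM per kilobase of mean transcript length (linear axes from 0) of the Gli genes (left) and the co-receptor genes (right) in each het and knockout (ko) clone, with the genes stacked. The Gli sum is 17.2 to 17.8 in het and 8.73 to 11.2 in knockout clones, and the co-receptor sum is 33.4 to 49.7 and 4.79 to 7.37.

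Ptch1, the receptor that restrains Smoothened, did not pass the test. Ptch1 (ENSMUSG00000021466; chromosome 13, 63508328 to 63573598, minus strand) stood at 49.8, 61.2 and 101 CPM in het replicates 1 to 3 and at 43.9, 48.4 and 51 CPM in knockout replicates 1 to 3. The genotypes overlapped, because het replicate 1 lay below the highest knockout clone, and the het clones spread over 2.02-fold. The log2 fold change was -0.56 with a 95% interval of -1.17 to 0.04 (adjusted p = 0.144, edgeR). It was -0.76 without het replicate 1, which passed (adjusted p = 0.0374, edgeR), and -0.22 without het replicate 3.

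Smo and Sufu, which act between the receptor and the Gli proteins, were close in both genotypes. Smo (ENSMUSG00000001761; chromosome 6, 29735503 to 29761365, plus strand) encodes the seven-pass membrane protein that carries the signal. Its values were 134, 109 and 128 CPM in het and 142, 138 and 144 CPM in knockout replicates 1 to 3. All knockout clones were higher, but the log2 fold change of 0.19 (95% interval -0.05 to 0.43) did not pass (adjusted p = 0.211, edgeR). Sufu (ENSMUSG00000025231; chromosome 19, 46396896 to 46488804, plus strand) encodes the cytoplasmic inhibitor that binds Gli proteins. It stood at 51.2, 44.5 and 54.3 CPM in het and 50.8, 50.7 and 57.5 CPM in knockout clones, with overlapping groups and a log2 fold change of 0.08 (interval -0.18 to 0.35, adjusted p = 0.615, edgeR). By these intervals, a change of Smo beyond 0.43 or of Sufu beyond 0.35 on the log2 scale, in either direction, lies outside the 95% range. Of the 40 tested genes nearest to Sufu, 18 were higher and 3 lower (median log2 fold change 0.42), and of those nearest to Smo 16 were higher and 1 lower (median 0.29). With this local median taken out the values became -0.34 for Sufu and -0.11 for Smo (adjusted p = 0.0746 and 0.484, edgeR).

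**Figure D3:**
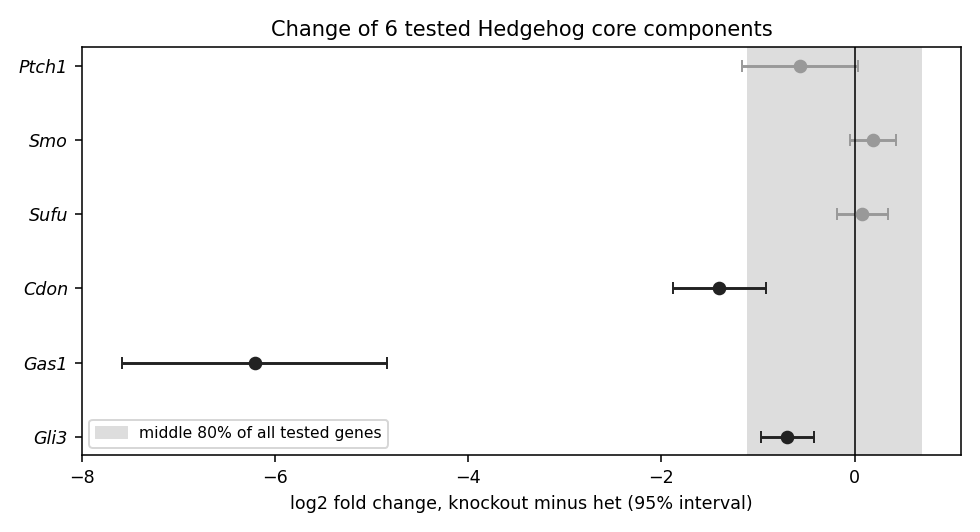
Log2 fold change (knockout minus het) with 95% intervals for 6 tested members, dark where the adjusted p is under 0.05; Gli2, without counts in knockout clones, is left out because its fitted value depends on the prior count. The grey band spans the middle 80% of all tested genes (-1.1 to 0.69), and Gas1 and Cdon lie below it while Gli3 lies inside it.

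Of the Gli transcription factor genes, Gli2 was undetected in the knockout clones. Gli2 (ENSMUSG00000048402; chromosome 1, 118834132 to 119053619, minus strand) encodes the main activator of the pathway. It had 37, 185 and 263 counts in het replicates 1, 2 and 3, or 2.21, 10.4 and 16.5 CPM, and 0 counts in each knockout clone. The genotypes did not overlap, but the het clones themselves differed 7.45-fold, with replicate 1 the lowest. Pooled over clones, Gli2 was at least 167-fold lower in knockout clones (floor of 3 counts over the group; adjusted p = 0.0134, edgeR). The bound was at least 111-fold without het replicate 3, 114-fold without knockout replicate 1 or 2, and 105-fold without knockout replicate 3, where a group of fewer clones has a higher floor.

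Gli3 fell by much less. Gli3 (ENSMUSG00000021318; chromosome 13, 15463235 to 15730026, plus strand) encodes the factor whose processed form is the main repressor. It stood at 137, 124 and 121 CPM in het and 69.6, 76.7 and 88.8 CPM in knockout replicates 1 to 3. The groups did not overlap, and the het clones were within 1.13-fold of each other. The log2 fold change was -0.7 (SE 0.12, adjusted p = 0.00666, edgeR). Its 40 nearest tested genes had a median of -0.13, and those of Gli2 and Gas1 had -0.02 and -0.18.

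Gli1, the target gene and amplifier of the pathway (ENSMUSG00000025407; chromosome 10, 127329882 to 127341974, minus strand), was barely detected in either genotype. It had 6, 12 and 9 counts in het and 3, 4 and 9 in knockout replicates 1 to 3, at most 0.675 CPM. The groups overlapped, and the pooled ratio of 1.74 towards lower knockout values had a counting interval of 0.904 to 3.45. With no filter on low counts the adjusted p was 0.419 (log2 fold change -0.79, edgeR), so a difference was not detectable at this depth. Per kilobase, Gli3 made up 97.5%, 89.6% and 84.8% of all Gli mRNA in het replicates 1 to 3 and 99% to 99.5% in knockout clones. Gli2 made up 1.97%, 9.39% and 14.4% in the het clones, whose Gli sums lay within 17.2 to 17.8 CPM per kilobase.

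Levels per length put Smo highest in both genotypes. In the deposited FPKM of het clones the order was Smo (32.5 ± 3.42, n = 3), Gas1 (24.5 ± 7.39), Gli3 (16.8 ± 0.969), Cdon (14.3 ± 3.15), Sufu (12.4 ± 1.46) and Ptch1 (9.53 ± 3.56). Every gene in this order differed from the next by less than the sum of their SDs. In knockout clones the order was Smo (38.1 ± 1.05), Sufu (13.8 ± 1.01), Gli3 (10.3 ± 1.3), Ptch1 (7.36 ± 0.328), Cdon (5.59 ± 1.14) and Gas1 (0.326 ± 0.293), each farther from the next than that sum. Gli1, Gli2 and Boc have no FPKM in the deposited table, which lists 24799 transcripts.

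Within a genotype, the members differed in how far the clones spread. Knockout replicate 3 had the highest CPM of the knockout clones in 7 of the 7 members with counts there, by 1.04-fold over the lowest clone for Smo and by 6.05-fold for Gas1. Among het clones, replicate 3 was highest in 5 of 8 members with counts (Ptch1, Gli2, Sufu, Gas1 and Cdon), and replicate 1 was highest for Smo and Gli3. How often these clones were highest over all genes was not counted. Whether either pattern is particular to the members was therefore not tested. Across all 6 clones, the genes most like Gli2 in log2 CPM were Hoxd11, a limb-patterning homeobox gene, Crabp2, which encodes a retinoic acid carrier, and Ccn3, a matricellular protein gene (Pearson r = 0.999, 0.998 and 0.998 among 10410 genes). Each had its lowest het value in replicate 1, as Gli2 did, which follows from choosing them by this correlation. Crabp2 stood at 19.2, 92.5 and 132 CPM in het and 0.366 to 0.569 CPM in knockout clones. The closest to Gli3 were Ptpn3, Cep295 and Akr1c14 (r = 0.998, 0.996 and 0.996), and the closest to Ptch1 were Akap13, Sh3pxd2a and Fzd8 (r = 0.992, 0.989 and 0.983). Fzd8 encodes a Wnt receptor. These correlations rest on 6 clones in 2 groups and are given as a description.

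Counts resolved by transcript showed which forms carried each gene. The 9 genes had 37 transcripts in the counts, of which 19 were tested. Of these, 5 were lower and 0 higher (edgeR on 34655 transcripts, where 7.94% passed, 3.77% lower and 4.16% higher; 1 was higher at an unadjusted p under 0.05). The 5 were Gas1-201, Gli2-201, Gli3-201, Cdon-201 and Cdon-206. Gli2-201, which spans the whole gene, held 96.1% of the Gli2 counts of het clones, and Gli3-201 held 97% of Gli3 in het and 98.3% in knockout clones. For Cdon, the form that begins at the internal start, Cdon-201, fell from 77.5 ± 10.6 to 28.3 ± 8.17 CPM (adjusted p = 0.0187, edgeR), while the tested forms that begin upstream differed in call. Cdon-202 stood at 23 ± 11.7 and 12.1 ± 3.9 CPM and did not pass (adjusted p = 0.26, edgeR), and the scarcer Cdon-206 fell from 2.69 ± 0.973 to 0.674 ± 0.106 CPM (adjusted p = 0.0436, edgeR). The third, Cdon-205, had a log2 fold change of -2.03 and did not pass (adjusted p = 0.254, edgeR). Whether these forms of Cdon differ in response was not tested. Only Gas1-201 passed without het replicate 2 or 3 or without knockout replicate 1 or 2, when the count fell from 5 to 1; without knockout replicate 3 it was 3. The authors' deposited table, which lists 10 of the 37, gives Gas1-201 a log2 fold change of -6.19 (adjusted p = 3.39e-32). In the authors' deposited table Cdon-201 has -1.48 (adjusted p = 1.58e-06) and Gli3-201 has -0.64 (adjusted p = 0.0335), and none of the 3 listed forms of Smo and Sufu passes. Transcripts of a gene share exons, so their separate levels are estimates.

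The other genes of the pathway were read from 5 lists, to be set beside 14.2% lower and 13.9% higher over all tested genes. Ligand genes were close to absent: Shh, Ihh and Dhh had 1, 5 and 10 counts in the het clones together and 4, 8 and 1 in the knockout clones, too few to test. Of 5 tested genes for making and releasing ligand, 1 was lower and 0 were higher (median log2 fold change -0.32). At an unadjusted p under 0.05 in edgeR 2 were lower and 2 higher, and DESeq2 also called 2 lower and 2 higher. Hhat, which encodes the palmitoyl transferase of Hedgehog ligands, fell from 13.2 ± 1.95 to 5.22 ± 0.972 CPM (log2 fold change -1.33, adjusted p = 0.00641, edgeR). Adam10 and Adam17, surface proteases that shed many membrane proteins, had log2 fold changes of 0.4 and 0.45 and did not pass (adjusted p = 0.0577 and 0.0718, edgeR; they passed in 5 and 4 of 15 alternatives). Without het replicate 1 or knockout replicate 3, 2 genes of this list were lower, and without het replicate 2 or 3, 1 was higher.

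Other receptors and ligand-binding proteins moved in both directions. Of 5 tested, 2 fell and 3 rose (median 1.41), against 14.2% lower and 13.9% higher over all tested genes. The glypican genes, which encode heparan sulfate proteoglycans of the cell surface, split. Gpc4 fell (log2 fold change -1.21, adjusted p = 0.00645, edgeR), and Gpc1 rose from 88.7 ± 8.35 to 236 ± 21.1 CPM (adjusted p = 0.000576, edgeR). Gpc6 rose from 2.95 ± 3.96 to 74.3 ± 9.85 CPM (adjusted p = 0.0238, edgeR), with het replicate 1 at 7.48 and replicate 3 at 0.188 CPM. The call was lost when het replicate 2 was left out (0.0673), when any knockout clone was (0.0547 to 0.077), and with no filter on low counts (0.0731), all in edgeR. Its log2 fold change of 4.65 ranged from 3.41 to 6.7 over the alternatives. Lrp2, a large endocytic receptor gene named after its value was seen, also rose (adjusted p = 0.0248, edgeR). A single gene (1) was higher without het replicate 2 or without knockout replicate 1 or 2. It was Gpc1, which kept its call in each of 15 alternatives, so Lrp2 did not pass in those settings. Hhip, which encodes a decoy receptor and is a pathway target, was too low to test: it had 41 counts in het and 0 in knockout clones, at least 14.1-fold lower.

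The genes that relay or tune the signal differed little as groups. Of 26 tested genes of Smo regulation, protein kinase A and G-protein signalling, 2 were lower, 3 higher and 21 did not pass (median 0.04). The shares over all tested genes were 14.2% lower and 13.9% higher. Prkaca, the main catalytic subunit of protein kinase A, fell from 149 ± 4.92 to 92.6 ± 3.35 CPM, and its regulatory subunit gene Prkar1b from 5.57 ± 2.8 to 0.444 ± 0.0393 CPM (adjusted p = 0.00226 and 0.00413, edgeR). Grk2, a kinase that phosphorylates activated Smo, rose from 126 ± 12.8 to 214 ± 20 CPM, and the adenylyl cyclase gene Adcy6 from 100 ± 8.5 to 137 ± 10.5 CPM (adjusted p = 0.00504 and 0.0201, edgeR). Leaving out het replicate 3 or knockout replicate 2 ended the call of Adcy6 (adjusted p = 0.0613 and 0.0818, edgeR), and the latter left 1 gene of this list higher. The third, Mosmo, was named after its value was seen (log2 fold change 0.33, adjusted p = 0.04, edgeR).

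Of 21 genes for Gli processing and turnover, 3 were lower, 4 higher and 14 did not pass (median 0.03). The shares over all tested genes were 14.2% lower and 13.9% higher. Hdac1, a deacetylase gene, fell from 249 ± 36.7 to 161 ± 12.5 CPM, and Numb, an adaptor of the ubiquitin ligase Itch, rose from 39.8 ± 1.38 to 59.7 ± 5.69 CPM (adjusted p = 0.0149 and 0.0086, edgeR). Spopl and the kinase gene Dyrk1a rose by 0.51 and 0.39 on the log2 scale (adjusted p = 0.0111 and 0.0174, edgeR). Kif7, the kinesin that organizes Gli proteins at the ciliary tip, and Dyrk1b also fell, and Fbxw11 rose (adjusted p = 0.0427, 0.0433 and 0.0199, edgeR). These 3 were named after their values were seen. In the deposited FPKM, Kif7 was close in both genotypes, at 1.65 ± 1.41 in het and 1.56 ± 0.372 in knockout clones, with het replicate 2 at 0.146. With the local chromosome median taken out, Numb, Spopl and Dyrk1a did not pass (adjusted p = 0.532, 0.697 and 0.0666, edgeR), and the log2 value of Spopl was -0.06. Hdac1 did not pass without knockout replicate 1 or 2 (0.0594 and 0.0733), and Dyrk1a did not when het replicate 2 (0.0509) or either of the same knockout clones was left out (0.0632 and 0.0552), all in edgeR. The counts of 3 and 4 became 1 and 2 without het replicate 2, 0 and 2 without knockout replicate 1 or 2, and 1 gene was lower without het replicate 1 or 3. Hdac1 kept its call without any 1 het clone, so it was the gene left lower there. Kif7 and Dyrk1b therefore did not pass without any 1 het clone, nor without knockout replicate 1 or 2.

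**Figure D4:**
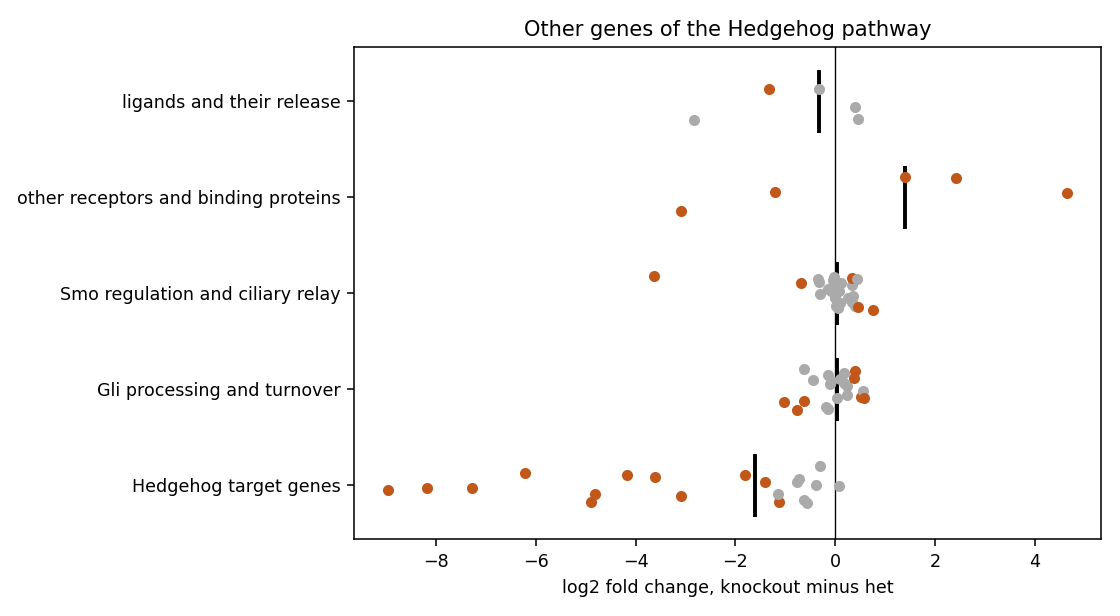
Log2 fold change (knockout minus het) of the tested genes in 5 Hedgehog lists, orange where the adjusted p is under 0.05 and grey where it is not, with a black line at each list's median and points spread vertically only for legibility. The target list includes the members Ptch1, Gas1 and Cdon, and active signalling lowers Gas1 and Cdon in several tissues. It has a median of -1.6 and no gene called higher.

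Genes reported as Hedgehog targets in various tissues were mostly lower. Of 20 tested, 12 fell, 0 rose and 8 did not pass, with a median of -1.6 (0 rose at an unadjusted p under 0.05 in edgeR, with DESeq2 or with limma-voom). Of all tested genes, 14.2% were lower and 13.9% higher. The list also holds Gas1, Cdon and Boc, genes that active signalling lowers in several tissues, unlike Gli1 and Ptch1, which are read as its output. Its counts and median therefore mix both kinds and are no measure of pathway output. Leaving out the members Ptch1, Gas1 and Cdon, 10 of 17 fell (median -1.8). Bmp4, a growth factor gene of mesenchyme, stood at 93.6, 91 and 153 CPM in het and 0.733, 0.8 and 0.62 CPM in knockout replicates 1 to 3 (log2 fold change -7.28, SE 0.3, adjusted p = 3.71e-05, edgeR). Osr1, Ccnd2 and Ccnd1 had log2 fold changes of -8.96, -8.18 and -4.89 (adjusted p = 0.000225, 0.000369 and 0.000576, edgeR). Osr1 had 2 counts in the knockout clones together, and its pooled ratio of 586 had a counting interval of 162 to 4850. On the log2(FPKM + 1) scale the values of Osr1 and Ccnd2 were -3.55 and -3.47. Osr1 encodes a zinc-finger factor, and the other pair encode D-type cyclins. These genes answer to other pathways too, and the list was assembled with earlier results on some of them known.

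Markers of the cell type moved with the same contrast. Their counts stand beside 14.2% lower and 13.9% higher over all tested genes. Of 11 tested fibroblast markers, 7 were lower and 0 higher in the knockout clones (median -1.82), and their summed level, over all 14 listed, was 6040 to 8430 CPM in het and 3350 to 5380 CPM in knockout clones. Col1a1, which encodes a chain of type I collagen, went from 1230 to 7.4 CPM, while Vim, which encodes vimentin, stood at 2430 and 2870 CPM (adjusted p = 0.00128 and 0.612, edgeR). Lum was at 0 in all libraries, and Thy1 and Dcn were too low to test. Of 4 tested neural and glial markers, 3 were lower, with a summed level of 48.4 to 71.5 CPM in het and 17.3 to 22.2 CPM in knockout clones. Muscle markers summed to 2.38 to 8.92 and 11.9 to 23.1 CPM (1 of 2 tested was higher), with Myod1 and Myog at 0. The gene called higher was Des, at 1.1 and 3.09 CPM (adjusted p = 0.0411, edgeR). Most of the sum was Tnnt2, at 3.17 and 16.1 CPM, which did not pass (adjusted p = 0.125, edgeR) and stood at 8.02 CPM in het replicate 1. Acta1, too low to test, was lower in knockout clones (0.393 and 0.0955 CPM). Epithelial markers summed to at most 1.12 CPM, endothelial to at most 4.71 CPM with Emcn at 0, and blood and immune markers to at most 6.4 CPM with Adgre1 and Cd3e at 0. The part of these differences in the Hedgehog results was not tested, and in bulk RNA fewer expressing cells and less RNA per cell cannot be told apart.

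The targeted gene Macf1 (chromosome 4, 123349633 to 123684360) was lower in all 3 knockout clones, at 309 to 363 CPM against 579 to 696 CPM (log2 fold change -0.99, adjusted p = 0.00307, edgeR). Library totals were 15661342 to 18209673 estimated counts. Het replicate 1 stood apart from the other het clones, with correlations of log2 CPM of 0.94 and 0.947 to them against 0.981 between those. Without it, 5 members were lower, Ptch1 being the addition.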

How the data were processed

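Poly(A) RNA of 6 clones was sequenced from strand-marking libraries, as the extract protocol in the labels says. The tools in the submitters' processing notes are kallisto 0.42.5, edgeR (no version given) and Trimmomatic 0.36, and the build is GRCm38.p4. For 96626 transcripts the authors deposited estimated counts (48.2% of values not whole), and for 24799 FPKM. The authors' deposited comparison holds log2 fold changes and p-values per transcript, per the file headers.

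Counts were summed per gene through GENCODE M21 (GRCm38) or the deposited table, and rounded. filterByExpr (at least 10 counts, 15 in total) chose the genes to test, TMM scaled the libraries, and the test was the robust quasi-likelihood test of edgeR 4.0.16 under R 4.3.3, two-sided, at an adjusted p of 0.05. Standard errors were derived from the F statistic. Intervals of pooled folds and floors of 3 counts cover counting error only. The procedure was tested on simulated counts. No clone repeated another within sampling noise (chi-square over its degrees of freedom 11.7 to 67.8). Alternatives were DESeq2 1.42.0, limma-voom (limma 3.58.1), other scalings and filters, log2(FPKM + 1) and log2(FPKM + 0.1), the median of the 40 nearest genes taken out, and each clone left out.

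The members and lists were chosen with earlier results of these data known. Macf1 and the members were always named. From each other list, up to 4 passing genes with the smallest adjusted p were named, and, if fewer than 2 passed, also the 2 with the highest CPM. For Gli2, Gli3 and Ptch1, the 3 genes with the highest correlation of log2 CPM (prior count 2, mean of at least 5 CPM) were named. Exceptions are marked. A gene that this rule names, from the list of other receptors, is not reported here.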

Additional observations from a re-analysis of the deposited data

How the results depend on the processing

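The calls of Gas1, Cdon, Gli2 and Gli3 held in each of the 15 alternatives in which the gene was kept. On both FPKM scales 3 members were lower, since Gli2 has no FPKM. Directions turned for Smo with the local chromosome median taken out (-0.11), for Sufu in that setting (-0.34) and without het replicate 2 (0; 0 to 0.15 with any 1 clone left out), for Spopl in that setting (-0.06), and for the transcripts Ptch1-207 without het replicate 1 (0.42; range -6.86 to 0.42), Smo-202 without knockout replicate 2 (0.11; range -0.4 to 0.11) and Sufu-202 without het replicate 1 (-0.1; range -0.1 to 0.23); none of these passed in either setting except Spopl in the main test. With 1 clone left out, all called genes numbered 1566 to 3825, with 871 to 2056 lower and 695 to 1769 higher, against 3585, 1814 and 1771, with the fewest without knockout replicate 2. In the same way, lower and higher counts were 1 to 2 and 0 to 1 for ligand release, 1 to 2 higher for other receptors, 1 to 3 higher for Smo regulation, and 0 to 3 lower and 2 to 4 higher for Gli processing. Member transcripts called lower were 1 to 4, and 3 with no filter on low counts. DESeq2 gave 2 lower and 2 higher for ligand release and 6 higher for Smo regulation, and RLE scaling 2 lower for ligand release. On both FPKM scales 2 were higher for ligand release, 1 lower for other receptors and 1 lower for Smo regulation. With at least 1 CPM in 3 samples, 1 was lower for other receptors, and with library totals 1 was lower for Gli processing. With the local median taken out, 1 was higher for ligand release, and 1 lower and 1 higher for Gli processing. Ptch1 in knockout clones was 6.83 CPM per kilobase against 7.36 FPKM. The cause of these differences was not tested. No paired analysis was possible because the labels match no het clone with a knockout clone. The replicate numbers used here do not pair them. Gli1, Hhip and the ligand genes had too few counts for the main test.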
